A study of Mus musculus with 8 samples.

Results

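The chemokine ligands are the secreted or membrane-anchored proteins that steer leukocytes along concentration gradients, and 36 of their genes were followed here by name: CC, CXC, CX3C and XC family members of the mouse. All 36 were found among the 35975 genes that have a transcript in the abundance tables. Of these genes 13343 had enough counts to be tested, among them 27 of the 36 ligands. The samples were tumors: syngeneic fibrosarcoma grown under the skin of wild-type (WT) C57BL/6 mice, digested, cleared of red cells and run over magnetic columns. The iron positive group (4 libraries) is the column eluate and the iron negative group (4 libraries) the flowthrough, and each of the tags 3L, 3R, 4R and 5L occurs once in both. Mice of both groups share genotype and tumor, and no drug, sex or age is named. Macrophages are named in the series title, yet no antibody sort appears in the labels. Whether the tags are separate animals is not stated either, so the p-values speak only of the spread among these 8 samples. In bulk RNA, fewer cells of a type and less RNA per cell cannot be told apart.

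Chemokines act through G protein-coupled receptors on the cells they attract. The neutrophil CXC ligands act on CXCR2, the monocyte-attracting CC ligands on CCR2, the inflammatory CC ligands on CCR1 and related receptors, the interferon-induced CXC ligands on CXCR3 of T and NK cells, and CXCL12 on CXCR4. In tumors, macrophages make many of the inflammatory ligands, whereas CXCL12 and CX3CL1 are known products of stromal and endothelial cells.

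Estimated counts totalled 19.04 to 24.31 M per library. Of 12 macrophage markers 4 fell in the iron positive libraries and none rose. With the tag as a replicate block 7 were lower, and when libraries were scaled to this list none was. That scaling equalizes the sum of these same markers, so its result for them was largely fixed in advance. The markers summed to 28800 to 31610 CPM (counts relative to library size, with edgeR's TMM factors) in the iron negative libraries. In the iron positive libraries they summed to 21670 to 29290 CPM, lowest in 3R. All 13 endothelial markers rose, with summed levels of 69.6 to 121 and 255 to 1916 CPM. Tek, Tie1, Emcn, Esam, Cldn5, Egfl7, Ptprb and Plvap each had an iron negative library at or below 0.40 CPM. They met the count filter only with the help of the iron positive libraries, so the count of rises is partly set by that filter. The iron positive libraries were unlike one another. Hmox1, the heme-degrading enzyme, had 5174 (3L), 700 (3R), 4230 (4R) and 1455 CPM (5L). The geometric mean of the endothelial list ran the other way at the ends, with 12.5 (3L), 116 (3R), 73.7 (4R) and 18.8 CPM (5L).

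A few ligands made up most of the chemokine RNA. Levels are compared between genes in TPM, the deposited values that allow for transcript length and library size. Pf4, the platelet factor that macrophages also transcribe, ranked 1 of the 27 by mean TPM. Its TPM was 1662 (3L), 1541 (3R), 1767 (4R) and 1735 (5L) in the iron negative libraries and 4307 (3L), 1678 (3R), 4719 (4R) and 2795 (5L) in the iron positive ones. Cxcl2, a neutrophil attractant, ranked 2 and Ccl6, a CCR1 ligand of rodents, 3, followed by Ccl12, Cxcl16, Ccl2, Ccl9, Ccl3, Ccl4 and Ccl7. Summed over the 36 genes, the chemokine level was 7507 (3L), 6092 (3R), 7734 (4R) and 7941 TPM (5L) in the iron negative libraries. The iron positive sums were 13057 (3L), 5684 (3R), 13939 (4R) and 9445 TPM (5L). Iron positive 3L, 4R and 5L thus lay above every iron negative library and 3R below all of them. The make-up of the sum differed as well: Pf4 held 21.8% to 25.3% of it in the iron negative and 29.5% to 33.9% in the iron positive libraries. Ccl6 held 2.21% to 2.60% and 5.18% to 14.6%, and Ppbp 0.145% to 0.305% and 0.515% to 3.94%. These shares are descriptions and were not tested.

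**Figure D1:**
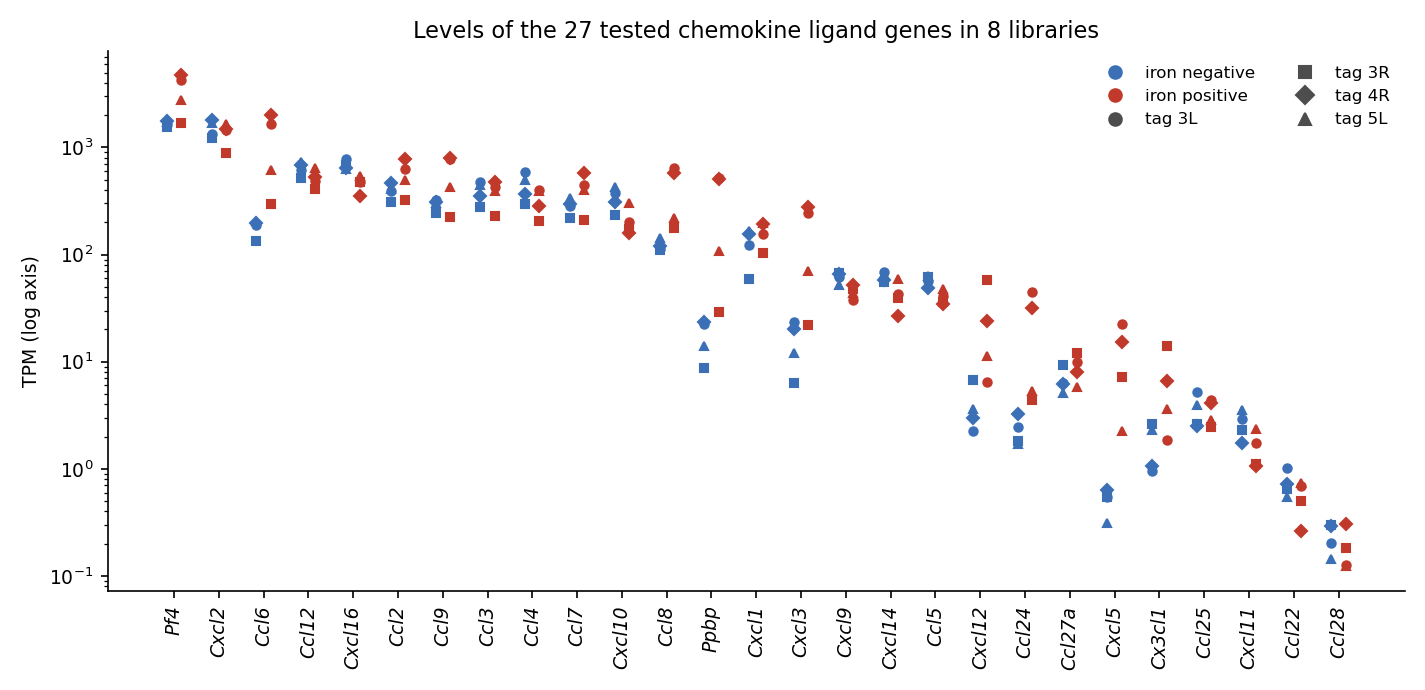
TPM of the 27 tested chemokine ligand genes on a log axis, ordered by mean, with 1 point per library, blue for iron negative, red for iron positive and the marker shape for the tag. Pf4 and Cxcl2 are the highest, and the red points of Ppbp, Cxcl3, Ccl6, Ccl24, Cxcl5 and Cxcl12 are spread much more widely than the blue ones.

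Of the 27 tested ligands, 7 rose in the iron positive libraries: Ccl6, Ccl8, Ccl24, Cxcl3, Cxcl5, Ppbp and Cxcl12 (adjusted p under 0.05 over all genes in edgeR, by the Benjamini-Hochberg method). Ccl5, Cxcl9 and Cxcl16 fell, and 17 did not pass. Over all 13343 genes 8.49% were called higher and 5.21% lower. Every iron positive library lay above every iron negative one for 6 ligands (11.2% of all genes) and below for 3 (10.4% of all genes). The median log2 fold change was 0.12 over the 27 ligands and -0.01 over all genes. The rises were large, between 1.72 and 4.46 on the log2 scale, and the falls small, between -0.53 and -0.62.

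Same-tag libraries deviate together from their group's mean. A fit in which the tag is a replicate block is therefore given beside each ligand call and each printed list count it changes. In that paired fit 10 ligands were higher (Pf4, Cx3cl1 and Cxcl1 in addition) and 8 lower (Ccl4, Ccl12, Cxcl10, Cxcl11 and Cxcl14 in addition), against 12.8% and 9.39% of all genes. Scaling the libraries to the macrophage list, which shifts the median log2 fold change of all genes by 0.19, gave 8 higher ligands (Pf4 in addition) and 0 lower ones, with 4 lower at an unadjusted p under 0.05. In edgeR no gene of the 13343, and so no ligand, receptor or marker, passed when iron negative 3L, 3R or 4R was left out, and of the ligands only Cxcl9 passed when 5L was. With unadjusted p under 0.05 as the limit, these fits had 8 to 9 higher and 3 to 6 lower ligands. Of all 13343 genes they had 1931 to 2028 higher and 1435 to 1546 lower at that limit. DESeq2 on the same libraries called 8 to 9 ligands higher and 3 to 5 lower, against 1313 to 1434 and 715 to 730 of all genes. Without iron positive 4R only Cxcl5 and Cxcl9 passed in edgeR, without 3L 4 ligands were higher, and without 3R 11 were higher (Ccl2, Ccl7, Ccl9 and Pf4 in addition).

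**Figure D2:**
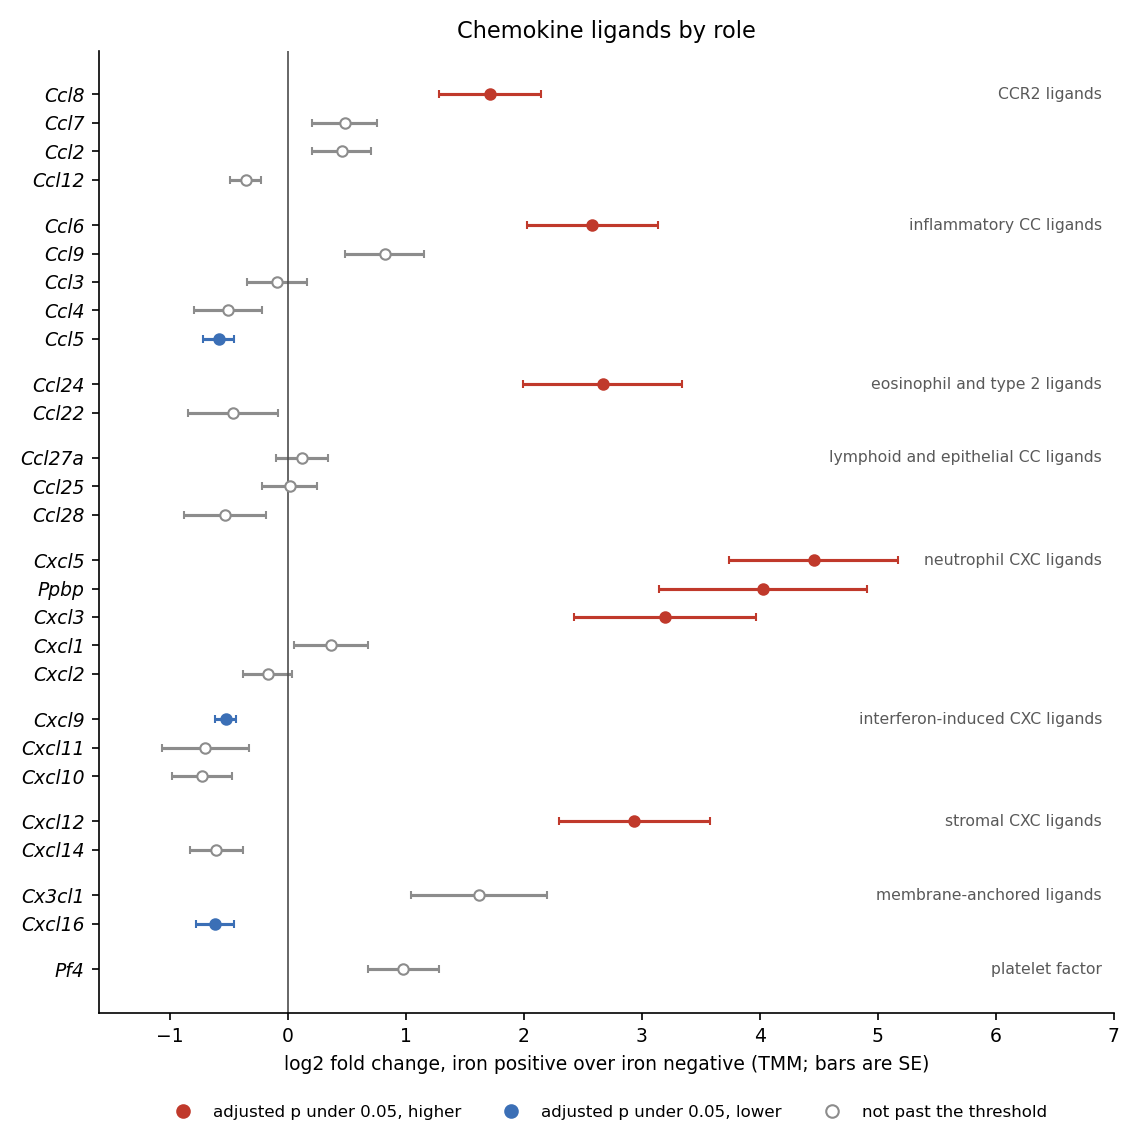
Log2 fold change of each tested ligand, iron positive over iron negative, with its SE (edgeR on TMM-scaled counts), grouped by role. Filled red points rose and filled blue points fell at an adjusted p under 0.05, and open points did not pass. Under the macrophage scaling no blue point passes.

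Among the ligands of the neutrophil receptor CXCR2, Cxcl5, Ppbp and Cxcl3 rose, and Cxcl1 and Cxcl2 did not pass. Ppbp, the precursor of the platelet basic protein CXCL7, had 16 (3L), 5.85 (3R), 15.4 (4R) and 9.43 CPM (5L) in the iron negative libraries. The iron positive values were 361 (3L), 18.7 (3R), 314 (4R) and 69.2 CPM (5L). All 4 lay above every iron negative library, 3R only just, and the same-tag ratios were 22.6 (3L), 3.19 (3R), 20.4 (4R) and 7.33 (5L). The log2 fold change was 4.03 ± 0.88 (SE) with adjusted p = 0.0243, and leaving out 1 library gave adjusted p of 0.0144 to 0.0766, past the threshold only without iron positive 3L, 3R or 5L. Cxcl5, an epithelial and stromal neutrophil attractant, was scarce in the iron negative libraries, with 0.62 (3L), 0.58 (3R), 0.76 (4R) and 0.36 CPM (5L). Cxcl5 had 25.8 (3L), 7.41 (3R), 15.6 (4R) and 2.47 CPM (5L) in the iron positive ones. The groups did not overlap, and its log2 fold change, 4.46 ± 0.72 (adjusted p = 0.0173), was the largest of the 27. With 8.3 counts in iron negative 5L, Cxcl5 met the count filter only with the help of its iron positive libraries. The size of its change thus rests on few iron negative counts. Cxcl5 lost the call only without 1 of the iron negative libraries (adjusted p 0.0528 to 0.0634).

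Cxcl3 is a CXCR2 ligand closely related to Cxcl1 and Cxcl2. Its iron negative values were 16.5 (3L), 4.44 (3R), 13.1 (4R) and 8.58 CPM (5L) and its iron positive ones 166 (3L), 13.9 (3R), 166 (4R) and 45.5 CPM (5L). The groups overlapped only in that iron positive 3R lay below iron negative 3L. The log2 fold change was 3.20 ± 0.77 (adjusted p = 0.0316), and the call was lost without any 1 iron negative library (0.0768 to 0.0924), without iron positive 3L (0.0514) or without iron positive 4R (0.0807). Cxcl2 was the most abundant CXCR2 ligand, with 935 (3L), 769 (3R), 1121 (4R) and 1108 CPM (5L) in the iron negative and 1012 (3L), 547 (3R), 903 (4R) and 1034 CPM (5L) in the iron positive libraries. The groups overlapped, at a log2 fold change of -0.17 ± 0.21 (adjusted p = 0.624). Cxcl1 ranged from 36.1 to 101 CPM and from 63.7 to 118 CPM and was higher in all 4 tags, with a log2 fold change of 0.37 ± 0.31 (adjusted p = 0.466; 0.026 with the replicate block). In TPM, Cxcl3 averaged 15.5 ± 7.7 (SD, n = 4) beside 1518 ± 281 for Cxcl2 in the iron negative and 153 ± 125 beside 1374 ± 329 in the iron positive libraries, so Cxcl2 stayed the main RNA of the 3.

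Of 6 measured neutrophil markers 3 rose (S100a8, S100a9 and Mmp9), 4 with the replicate block (Retnlg in addition). S100a8 and Retnlg, at 0.43 and 0.22 CPM in iron negative 5L, met the count filter only with the help of their iron positive libraries. Csf3r, at 58.2 to 78.4 CPM over all 8 libraries and the highest of the list in every iron negative one, did not pass (-0.15, adjusted p = 0.207). The list summed to 91.1 to 119 CPM in the iron negative and 203 to 643 CPM in the iron positive libraries, where Mmp9 alone held 127 to 556 CPM, against 20.2 to 41.3 CPM in the iron negative ones. Ly6g, the defining surface marker, was at 0 in 7 libraries and at 0.04 CPM in the other, and Cxcr2, the receptor itself, lay between 0.49 and 1.28 CPM in all 8 (log2 fold change 0.45, adjusted p = 0.417). The part of neutrophils in the ligand values was not tested. Of 12 NF-kappaB feedback genes, which the pathway that drives Cxcl1, Cxcl2 and Cxcl3 induces, none rose and 3 fell, namely Relb (-0.40, adjusted p = 0.0238), Nfkb2 (-0.43, 0.0264) and Nfkb1 (-0.32, 0.0287), with a median of -0.45. With the replicate block 11 of the 12 were lower, and under the macrophage scaling none.

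These CXCR2 ligands are neighbours. On chromosome 5 (mm10) the genes Cxcl5 (90759360 to 90761624), Ppbp (90768518 to 90770063), Pf4 (90772435 to 90773383), Cxcl3 (90786103 to 90789600), Cxcl15, Cxcl1 (90891241 to 90893115) and Cxcl2 (90903871 to 90905938) stand in this order on the plus strand within 146.6 kb. Along the row the log2 fold change was 4.46, 4.03, 0.98, 3.20, not tested, 0.37 and -0.17. The promoters of 5 of them are shown because neighbours with and without a rise stand side by side. Each line holds the 250 bases upstream of the RefSeq gene start (GRCm38.p6, plus strand), with matches to the NF-kappaB consensus on either strand in capitals.
Ppbp, chr5:90768268-90768517: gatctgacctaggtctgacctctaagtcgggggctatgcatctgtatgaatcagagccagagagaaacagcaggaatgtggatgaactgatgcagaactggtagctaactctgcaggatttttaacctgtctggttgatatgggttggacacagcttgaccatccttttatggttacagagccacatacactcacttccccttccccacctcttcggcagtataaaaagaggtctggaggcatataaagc
Pf4, chr5:90772185-90772434: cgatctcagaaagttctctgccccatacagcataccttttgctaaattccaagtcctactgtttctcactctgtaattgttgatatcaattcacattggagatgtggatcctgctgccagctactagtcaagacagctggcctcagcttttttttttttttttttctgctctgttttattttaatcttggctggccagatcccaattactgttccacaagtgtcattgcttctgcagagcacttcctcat
Cxcl3, chr5:90785851-90786100: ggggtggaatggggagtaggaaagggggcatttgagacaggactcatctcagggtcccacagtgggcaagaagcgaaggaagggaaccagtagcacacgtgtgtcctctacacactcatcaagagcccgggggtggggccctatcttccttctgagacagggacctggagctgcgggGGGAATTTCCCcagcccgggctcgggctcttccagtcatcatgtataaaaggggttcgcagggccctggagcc
Cxcl1, chr5:90890995-90891244: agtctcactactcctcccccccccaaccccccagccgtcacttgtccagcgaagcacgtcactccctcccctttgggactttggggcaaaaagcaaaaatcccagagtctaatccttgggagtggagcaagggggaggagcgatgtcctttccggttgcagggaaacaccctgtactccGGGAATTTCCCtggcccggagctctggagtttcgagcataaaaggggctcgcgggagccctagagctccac
Cxcl2, chr5:90903649-90903898: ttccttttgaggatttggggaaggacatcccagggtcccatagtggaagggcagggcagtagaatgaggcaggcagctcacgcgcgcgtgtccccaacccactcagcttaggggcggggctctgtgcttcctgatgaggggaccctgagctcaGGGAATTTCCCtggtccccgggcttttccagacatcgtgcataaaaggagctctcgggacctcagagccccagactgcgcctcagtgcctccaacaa

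Cxcl3, which rose, and Cxcl1 and Cxcl2, which did not pass, carry the same run of 11 capital letters, a consensus match on both strands that overlap by all but 1 base at either end. The run starts 73 bases upstream of the gene start in Cxcl3, 71 in Cxcl1 and 97 in Cxcl2. No match stands in the windows of Ppbp and Pf4, which says only that those letters are not in these 250 bases. Over all 32851 windows of this length 7.25% hold a match, and among the 26 ligands with a window 6 do, the others being Ccl9, Ccl20 and Cxcl10. The interferon-stimulated response element (2.98% of all windows) was found for Ccl19, Cxcl10 and Cxcl14, and the antioxidant core TGACNNNGC (10.2%) for Cxcl10 and Cxcl13. The hypoxia motif ACGTG (16.6%), which can be part of CACGTG, was found for Cxcl1 and Cxcl3, the AP-1 motif TGANTCA (6.75%) for Ppbp, Ccl9, Ccl27a and Cxcl10, and the C/EBP motif TTGCNNAA (9.56%) for Pf4, Ccl21a, Ccl27a and Cxcl13, each on either strand. Of 6 hypoxia genes 2 rose, Egln3 (1.39, adjusted p = 0.0301) and Ankrd37 (0.86, 0.0465), and with the replicate block 3, Ndrg1 in addition (adjusted p = 0.0124). A match is a description of the letters, not of a bound site.

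Pf4, which lies between Ppbp and Cxcl3, did not pass. Its CPM was 473 (3L), 394 (3R), 449 (4R) and 437 (5L) in the iron negative and 1213 (3L), 425 (3R), 1152 (4R) and 668 (5L) in the iron positive libraries. It was higher in all 4 tags, but iron positive 3R lay within the iron negative range. Its log2 fold change was 0.98 ± 0.30 (adjusted p = 0.0635), with 0.0324 under the replicate block, 0.00407 in DESeq2, 0.0207 under the macrophage scaling and 0.0152 without iron positive 3R. Ppbp and Pf4 are both textbook platelet granule genes. The defining platelet and megakaryocyte markers were near 0: of 8 genes 3 were measured, none was called, none of the 8 exceeded 1.44 CPM in any library, and the list summed to 1.92 to 3.03 CPM in the iron negative and 2.53 to 4.05 in the iron positive libraries. The part of platelets in the Ppbp and Pf4 values was not tested.

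Of the 4 genes grouped here under the monocyte receptor CCR2, Ccl8 rose and Ccl2, Ccl7 and Ccl12 did not pass. The grouping does not show that mouse CCL8 acts on CCR2. Ccl8 had 25.2 (3L), 22.2 (3R), 25.0 (4R) and 28.3 CPM (5L) in the iron negative and 142 (3L), 35.9 (3R), 113 (4R) and 40.4 CPM (5L) in the iron positive libraries. The groups did not overlap, and 3L and 4R stood far above 3R and 5L. The log2 fold change was 1.72 ± 0.43 (adjusted p = 0.0362), and without 1 library the adjusted p was 0.0164 to 0.0969, past the threshold only without iron positive 3R or 5L. Ccl2, the main monocyte attractant, had 191 (3L), 142 (3R), 212 (4R) and 188 CPM (5L) in the iron negative and 306 (3L), 144 (3R), 338 (4R) and 220 CPM (5L) in the iron positive libraries. Its neighbour Ccl7 had 133 (3L), 95.2 (3R), 128 (4R) and 147 CPM (5L), and 209 (3L), 89.7 (3R), 236 (4R) and 168 CPM (5L). Both overlapped between the groups through iron positive 3R. Their log2 fold changes were 0.46 ± 0.25 (adjusted p = 0.253) for Ccl2 and 0.48 ± 0.27 (0.268) for Ccl7, and without iron positive 3R both passed (0.0452 and 0.0304).

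Ccl12, a mouse ligand next to Ccl8 on chromosome 11, went the other way. It had 151 (3L), 116 (3R), 152 (4R) and 158 CPM (5L) in the iron negative and 117 (3L), 90.3 (3R), 112 (4R) and 131 CPM (5L) in the iron positive libraries, lower in all 4 tags by a like ratio (0.739 to 0.831). Its log2 fold change was -0.35 ± 0.13 (adjusted p = 0.106; 0.00561 with the replicate block). Under the macrophage scaling it was -0.18. Ccr2, the receptor of Ccl2, Ccl7 and Ccl12, fell by 0.89 log2 units (adjusted p = 0.0198). It is also 1 of 5 monocyte markers, of which Vcan rose (2.18, adjusted p = 0.026) and Chil3 (1.47, 0.118), Plac8 (0.88, 0.224) and Ly6c2 (0.42, 0.429) did not pass, so that 4 of the 5 had a positive value and the median was 0.88. The part of monocytes in the ligand values was not tested. The genes of this group span 81.2 kb, with Ccl11 among them, all on the plus strand. Their order is Ccl2 (82035571 to 82037453), Ccl7 (82045712 to 82047525), Ccl11, Ccl12 (82101845 to 82103400) and Ccl8 (82115185 to 82116799).

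The inflammatory CC ligands split: Ccl6 rose, Ccl5 fell, and Ccl3, Ccl4 and Ccl9 did not pass. Ccl6, a CCR1 ligand made by macrophages and other myeloid cells, had 166 (3L), 113 (3R), 157 (4R) and 168 CPM (5L) in the iron negative libraries. In the iron positive libraries it had 1389 (3L), 226 (3R), 1510 (4R) and 489 CPM (5L), above every iron negative value. Its log2 fold change was 2.58 ± 0.55 (adjusted p = 0.0229), and the call was lost without any 1 iron negative library (0.0691 to 0.0744) or without iron positive 4R (0.0589). By mean TPM it went from 182 ± 32 to 1150 ± 830 (SD, n = 4), below Cxcl2 in both group means. In iron positive 3L and 4R, however, its TPM of 1668 and 2029 exceeded those of Cxcl2, 1465 and 1488. Ccl9, its neighbour and also a CCR1 ligand, had 388 (3L), 270 (3R), 328 (4R) and 344 CPM (5L), and 852 (3L), 251 (3R), 767 (4R) and 482 CPM (5L) in the iron positive libraries. Iron positive 3L, 4R and 5L lay above every iron negative library and 3R below all of them, and at 0.82 ± 0.34 it did not pass (adjusted p = 0.135; 0.0395 in DESeq2; 0.0181 without iron positive 3R).

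Ccl5, the T cell attractant RANTES, had 14.0 (3L), 13.5 (3R), 11.1 (4R) and 13.7 CPM (5L) in the iron negative and 10.1 (3L), 7.86 (3R), 7.41 (4R) and 9.51 CPM (5L) in the iron positive libraries. The groups did not overlap, and Ccl5 fell by 0.58 ± 0.13 log2 units (adjusted p = 0.026). That call was lost under the macrophage scaling (-0.41, adjusted p = 0.11), without any 1 iron negative library (0.0634 to 0.0822) and without iron positive 4R (0.0673). T and NK cells also express Ccl5, and their 10 listed markers summed to 5.20 to 15.3 CPM in the iron negative and 2.67 to 6.52 in the iron positive libraries, with none of 5 measured ones called. With the replicate block 2 of the 5 were lower, Gzmb (adjusted p = 0.0206) and Trac (0.036). Their part in the result was not tested.

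Ccl3 and Ccl4, the macrophage inflammatory proteins, overlapped between the groups. Ccl3 had 213 (3L), 113 (3R), 143 (4R) and 183 CPM (5L) and 186 (3L), 91.4 (3R), 184 (4R) and 152 CPM (5L), a log2 fold change of -0.09 ± 0.26 (adjusted p = 0.838) that turned to 0.07 under the macrophage scaling. Ccl4 had 208 (3L), 96.7 (3R), 119 (4R) and 158 CPM (5L) and 138 (3L), 64.3 (3R), 86.7 (4R) and 120 CPM (5L). Within each tag the iron positive library was lower, at 0.665 to 0.761 times the iron negative value, while the tags themselves differed up to 2.15-fold. Its log2 fold change of -0.51 ± 0.29 did not pass without the tag (adjusted p = 0.272) and passed with the replicate block (0.00202). Along chromosome 11 the genes Ccl5 (83525778 to 83530518), Ccl9 (83572919 to 83578636), Ccl6 (83587882 to 83593087), Ccl3 (83647844 to 83649355) and Ccl4 (83662584 to 83664683) lie within 138.9 kb, all on the minus strand but Ccl4. In this order the log2 fold changes were -0.58, 0.82, 2.58, -0.09 and -0.51. Only Ccl9 and Ccl6 had positive values, Ccl9 did not pass, and differences between neighbours were not tested.

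**Figure D3:**
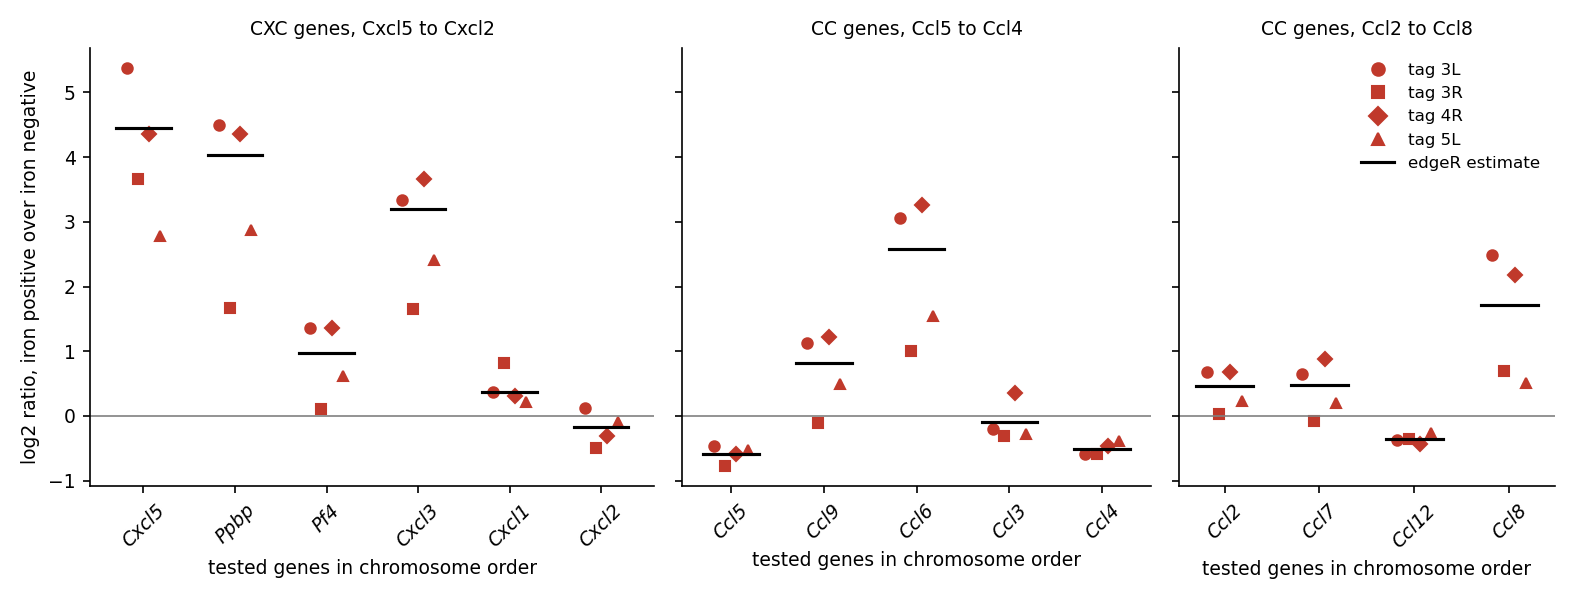
Log2 ratio of iron positive to iron negative CPM for each tag (points) and the edgeR estimate (black line) of the tested ligands in chromosome order, for the chromosome 5 CXC genes and both chromosome 11 groups of CC genes. Neighbours differ: Cxcl5, Ppbp and Cxcl3 stand well above 0 beside Cxcl1 and Cxcl2, Ccl6 stands above Ccl5, Ccl3 and Ccl4, and Ccl8 stands above Ccl12.

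Of the eosinophil and type 2 ligands, Ccl24 rose. Ccl24, eotaxin 2 and a ligand of CCR3 (chromosome 5, 135569937 to 135573049), had 1.37 (3L), 1.12 (3R), 2.10 (4R) and 1.43 CPM (5L) in the iron negative and 20.3 (3L), 2.27 (3R), 12.5 (4R) and 3.48 CPM (5L) in the iron positive libraries. Iron positive 3R was the lowest of its group and still above every iron negative library. The log2 fold change was 2.67 ± 0.67 (adjusted p = 0.0362), and the call was lost without any 1 iron negative library (0.0826 to 0.101), without iron positive 3L (0.0561) or without iron positive 4R (0.0886). Ccr3, its receptor and a marker of eosinophils, rose as well, from 0.36 to 0.70 CPM to 0.86 to 5.19 CPM (log2 fold change 2.30 ± 0.52, adjusted p = 0.026). At 0.36 CPM in iron negative 4R, Ccr3 met the count filter only with the help of its iron positive libraries. The size of its change thus rests on few iron negative counts. Mast cell and basophil markers were at or below 0.35 CPM per gene in all 8 libraries. Ccl22, a CCR4 ligand of dendritic cells and macrophages, lay between 0.39 and 1.72 CPM in all libraries (-0.46 ± 0.38, adjusted p = 0.451). Of 5 measured dendritic cell markers Zbtb46 rose (2.07, adjusted p = 0.0281), and 2 of them passed with the replicate block (Fscn1 in addition). Over the iron positive libraries both had the order of the endothelial list, 3R, 4R, 5L and then 3L. Clec9a (1.20, adjusted p = 0.1037), Xcr1 (0.42, 0.4315) and Ccr7 (-0.79, 0.5025) did not pass. Flt3 and Cd209a, at or below 0.5 CPM in every library, were not measured. The part of dendritic cells was not tested. The list summed to 17.5 to 35.7 CPM in the iron negative and 27.6 to 202 CPM in the iron positive libraries, of which Fscn1 (adjusted p = 0.0748; 0.00851 with the replicate block) held 11.1 to 32.6 and 21.6 to 191 CPM.

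Ccl11, eotaxin 1, was too low for the filter and was not tested with the others. It had 3, 4, 4 and 2 counts in iron negative 3L, 3R, 4R and 5L, and 7, 83, 73 and 22 counts in the iron positive libraries of the same tags. Its highest libraries, 3R and 4R, are those of the endothelial list and not those of Hmox1 and Ccl24. With no filter or a filter on the mean, fits gave it log2 fold changes of 3.80 (adjusted p = 0.0163) and 3.84 (adjusted p = 0.0224). Only its iron positive level met the filter on the mean, at 2.17 CPM against 0.15 CPM in the iron negative libraries. These fits therefore add no support beyond the counts themselves.

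The interferon-induced ligands of CXCR3 were lower in the iron positive library of every tag, and Cxcl9 passed. Cxcl9, an interferon-gamma target, had 139 (3L), 136 (3R), 137 (4R) and 114 CPM (5L) in the iron negative and 81.1 (3L), 95.4 (3R), 99.6 (4R) and 89.2 CPM (5L) in the iron positive libraries. The groups did not overlap, and the spread within each was narrow. Cxcl9 fell by 0.53 ± 0.09 log2 units (adjusted p = 0.0173), a call lost under the macrophage scaling (-0.33, adjusted p = 0.183) and when iron negative 3L, 3R or 4R was left out (0.0529 to 0.0634). Cxcl10, which type I interferon also induces, ranged from 159 to 292 CPM and from 102 to 202 CPM, and its log2 fold change was -0.73 ± 0.25 (adjusted p = 0.089; 0.00525 with the replicate block; 0.0276 without iron positive 5L). Cxcl11 lay between 2.14 and 5.35 CPM and between 1.53 and 3.67 CPM (-0.70 ± 0.37, adjusted p = 0.235; 0.035 with the replicate block). Its gene is annotated as a polymorphic pseudogene in GENCODE. The 3 genes are neighbours within 44.1 kb of chromosome 5, with Cxcl9 at 92321347 to 92328079, Cxcl10 at 92346638 to 92348889 and Cxcl11 at 92359544 to 92365485 on the minus strand.

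Other interferon-gamma response genes included 6 of 11 that fell and none that rose, among them Irf8 (-0.38), Gbp5 (-0.38), Ciita (-0.97), Gbp2 (-0.31) and Gbp3 (-0.39). Irf8 is a transcription factor of the myeloid lineage and Ciita the switch of MHC class II genes. The list's median was -0.31, and under the macrophage scaling none was lower in edgeR. Of 10 type I interferon response genes none passed (median -0.13), and 4 were lower with the replicate block.

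Among stromal ligands Cxcl12 rose, with another order of the libraries than Ppbp or Ccl6. Cxcl12, the CXCR4 ligand that holds stem cells and lymphocytes in their niches (chromosome 6, 117168535 to 117181367), had 3.84 (3L), 10.9 (3R), 5.37 (4R) and 6.00 CPM (5L) in the iron negative and 14.8 (3L), 109 (3R), 51.7 (4R) and 24.0 CPM (5L) in the iron positive libraries. The groups did not overlap, and 3R and 4R were highest. The log2 fold change was 2.94 ± 0.64 (adjusted p = 0.0236), and the call was lost without any 1 iron negative library (0.0554 to 0.0783) or without iron positive 4R (0.0589). Pericyte markers (7 of 10 measured rose, 9 with the replicate block) summed to 29.1 to 62.1 and 96.8 to 728 CPM and fibroblast and fibrosarcoma markers (7 of 11, 10 with the replicate block) to 504 to 773 and 1070 to 5624 CPM, each highest in iron positive 3R and then 4R, as was the endothelial list. Some pericyte genes, such as Myh11 and Kcnj8 at or below 0.31 CPM in every iron negative library, met the count filter only through the iron positive ones. The part of these cell types in the Cxcl12 value was not tested. Cxcr4, its receptor, was at 363 CPM or more in every library and did not pass (-0.35 ± 0.32, adjusted p = 0.494; 0.0257 with the replicate block). Ackr3, the scavenging CXCL12 receptor, rose from 0.35 to 1.12 CPM to 3.87 to 27 CPM (4.15 ± 0.67, adjusted p = 0.0173). At 0.35 CPM in iron negative 5L, Ackr3 met the count filter only with the help of its iron positive libraries, so the size of its change rests on few iron negative counts.

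The mix of Cxcl12 transcripts also differed between the groups. Cxcl12-201, whose coding part has 119 codons, made up 2.49% (3L), 3.11% (3R), 10.8% (4R) and 1.16% (5L) of the gene's TPM in the iron negative libraries. In the iron positive libraries it made up 22.8% (3L), 15.4% (3R), 24.3% (4R) and 20.4% (5L), above every iron negative one. The shares averaged 4.38 ± 4.34% and 20.7 ± 3.9% (SD, n = 4). Cxcl12-202, with 89 codons, went from 72.5 ± 4.9% to 56.6 ± 6.9%, and Cxcl12-203, with 93 codons, was at 21.2 ± 3.7% and 19.6 ± 2.6%. The 201 form is the one known as gamma, whose long basic tail binds heparan sulfate, and the 202 form is alpha. This was noticed after the values were seen and has no test, and behind the iron negative shares stand only 4.29 to 30.0 estimated counts of Cxcl12-201 per library.

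Cxcl14, an epithelial and stromal ligand, was lower in all 4 tags without passing. It ranged from 70.2 to 93.7 CPM in the iron negative and from 31.7 to 73.8 CPM in the iron positive libraries (-0.60 ± 0.23, adjusted p = 0.112; 0.0225 with the replicate block; 0.0289 without iron positive 5L).

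Of the pair of membrane-anchored ligands, Cxcl16 fell and Cx3cl1 did not pass. Cxcl16, a scavenger receptor for oxidized lipid that is also shed as a CXCR6 ligand (chromosome 11, 70453983 to 70459984), had 1262 (3L), 1055 (3R), 952 (4R) and 968 CPM (5L) in the iron negative and 761 (3L), 683 (3R), 498 (4R) and 814 CPM (5L) in the iron positive libraries. No iron positive library reached the lowest iron negative one. Cxcl16 fell by 0.62 ± 0.16 log2 units (adjusted p = 0.0389), and the call was lost under the macrophage scaling (-0.43, adjusted p = 0.119), without any 1 iron negative library (0.0788 to 0.11), without iron positive 3R (0.0604) or without iron positive 4R (0.0618). The shares of its 3 transcripts were alike in both groups, at 56.7 ± 1.9% and 56.4 ± 0.5% for Cxcl16-201. Cx3cl1, fractalkine, which endothelial cells display on their surface (chromosome 8, 94772009 to 94782427), had 2.52 (3L), 5.65 (3R), 2.55 (4R) and 3.17 CPM (5L) in the iron negative and 3.99 (3L), 24.3 (3R), 9.03 (4R) and 5.33 CPM (5L) in the iron positive libraries. It was higher in all 4 tags with overlapping groups, at 1.62 ± 0.58 (adjusted p = 0.0967; 0.0165 with the replicate block). Cx3cr1, its receptor on monocytes and macrophages, fell by 0.75 ± 0.18 log2 units, from 1199 to 1310 CPM to 503 to 971 CPM (adjusted p = 0.0301). Of the proteases that shed or trim chemokines, Adam17 fell by 0.37 (adjusted p = 0.0209), Adam10 did not pass (-0.18, 0.135), and Mmp9 (3.36, 0.0173) and Mmp12 (1.28, 0.0274) rose.

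Over all 19 chemokine receptors, 13 were measured, Ccr3 rose, and Ccr2, Cx3cr1 and Ccr1 fell. Ccr1, the receptor of Ccl6 and Ccl9, fell by 0.32 ± 0.07 log2 units, from 359 to 377 CPM to 261 to 326 CPM (adjusted p = 0.0277). None of the 3 was called lower under the macrophage scaling, and with the replicate block 5 were lower (Cxcr4 and Ccrl2 in addition). The receptor list summed to 3075 to 3967 CPM in the iron negative and 1779 to 2761 CPM in the iron positive libraries, without overlap.

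Over the iron positive libraries 11 ligands had the order of Hmox1 at the top, 4 that of the endothelial genes and 12 neither. For the 11, the highest libraries were 3L and 4R, as for Hmox1: Ccl2, Ccl3, Ccl6, Ccl7, Ccl8, Ccl9, Ccl24, Cxcl3, Cxcl5, Pf4 and Ppbp. That is 40.7%, against 18.6% of all 13343 genes. The whole order of Hmox1, 3L, 4R, 5L and then 3R, was met by 7 of them (25.9%, against 7.57% of all genes), namely Ccl3, Ccl8, Ccl9, Ccl24, Cxcl3, Pf4 and Ppbp. Ccl6 had 4R above 3L, Cxcl5 had 3R above 5L, and for Cxcl3 the values of 3L and 4R were nearly equal. The pattern of the endothelial list, 3R and 4R highest, was met by 4 ligands (14.8%, against 23.6% of all genes): Cxcl12, Cx3cl1, Cxcl9 and Ccl28. Only Cxcl12 and Cx3cl1 followed its whole order, 3R, 4R, 5L and then 3L. Orders of 4 libraries are a description, and no correlation was computed over so few.

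Restricting the view to ligands with at least a 2-fold range over the iron positive libraries, a limit chosen after the values were seen, left 17. Of these the same 11 (64.7%) had the Hmox1 pattern and 2 (11.8%), Cxcl12 and Cx3cl1, the endothelial one, against 14.3% and 54.6% of the 2751 genes of that range. The ratio of iron positive 3L to 3R gives the size: 19.4 for Ppbp, 11.9 for Cxcl3, 8.94 for Ccl24, 6.16 for Ccl6, 3.95 for Ccl8, 3.48 for Cxcl5, 3.39 for Ccl9 and 2.85 for Pf4. It was 0.136 for Cxcl12 and 0.164 for Cx3cl1. Ccl7, Ccl2 and Ccl3 had 2.33, 2.12 and 2.03. Part of that order was present in the iron negative libraries too, where the ratio of 3L to 3R was 3.71 for Cxcl3, 2.74 for Ppbp and 1.88 for Ccl3. It was 1.48 for Ccl6, 1.44 for Ccl9, 1.40 for Ccl7, 1.35 for Ccl2, 1.22 for Ccl24, 1.2 for Pf4, 1.14 for Ccl8 and 1.06 for Cxcl5. The ratio was 0.446 for Cx3cl1 and 0.354 for Cxcl12. For Ccl3 the ratio was thus nearly alike in both groups. Of the 7 ligands that rose, 6 had the Hmox1 pattern and 1, Cxcl12, the endothelial one. The shares of these patterns among all genes that rose were not computed, so these counts are a description. None of the 3 that fell had the Hmox1 pattern, too few to read against 18.6% of all genes.

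**Figure D4:**
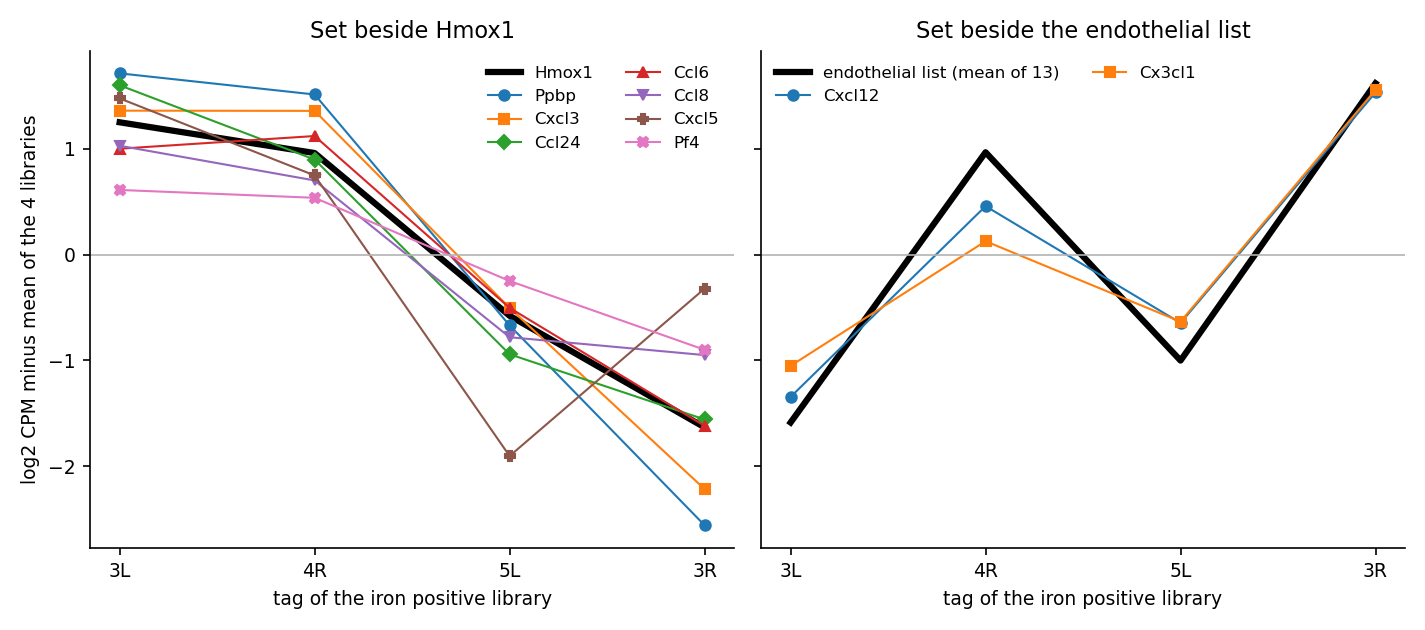
Log2 CPM of each gene minus its own mean over the 4 iron positive libraries, ordered by tag as Hmox1 runs from high to low. Left, Ppbp, Cxcl3, Ccl24, Ccl6, Ccl8, Cxcl5 and Pf4 beside Hmox1 (black); right, Cxcl12 and Cx3cl1 beside the mean of the 13 endothelial markers (black). The left lines are high in 3L and 4R and low in 5L and 3R, with Ccl6 highest in 4R and Cxcl5 lowest in 5L, and the right lines peak in 3R.

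The remaining lymphoid and epithelial ligands were low and did not pass. Ccl25, a thymic and gut ligand, lay between 1.56 and 3.04 CPM in all libraries (0.02 ± 0.23, adjusted p = 0.971), and Ccl28, a mucosal ligand, between 0.34 and 0.85 CPM (-0.53 ± 0.35, 0.338). Ccl27a, a skin ligand whose transcripts overlap other genes, so that its level is uncertain, lay between 1.32 and 2.07 CPM (0.12 ± 0.22, 0.747). Of the 9 ligands without a test, Ccl19, Ccl20 and Cxcl17 had 0 counts in all 8 libraries, which allows up to 3 counts per library by counting error alone. Cxcl13, the B cell attractant, had at most 4 counts in any library, Cxcl15 3, Xcl1 8 and Ccl17 10. Ccl21a, the lymph node ligand of CCR7, had 12 counts in iron positive 3L and 25 in 3R, 2 in iron negative 3L and none in the others, and its near-identical copies make even these uncertain.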

How the data were processed

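RNA of 4 iron positive and 4 iron negative fractions was sequenced in bulk. Per the submitters' processing notes, kallisto 0.46.2 and mm10 were used, with a transcript release not given in the sources used here. Per the file headers, a deposited table lists for every transcript its estimated count, which is not normalized, its TPM, which allows for effective length and for library size, and lengths and effective lengths as other values. No replicates were pooled.

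Transcripts were joined to GENCODE release 21 for mouse (the mm10 assembly) by identifier without version: 116728 of 119414 matched, and the other 2686 (0.888% to 0.961% of a library's counts) were left out. Estimated counts were summed per gene without regard to strand and rounded. filterByExpr left 13343 genes, scaled by TMM, and edgeR 4.0.16 (R 4.3.3) tested the fractions with a two-sided quasi-likelihood test and Benjamini-Hochberg adjustment over all of them at 0.05. Single-gene p-values are edgeR's unless another tool is named. SEs are approximate, from the fold change and its F statistic. CPM were computed here. Alternatives were DESeq2 1.42.0, other scalings and filters, limma 3.58.1 on log2(TPM + 0.1) and log2(TPM + 1), the tag as a block, and leaving out each library. The DESeq2 fits without a library and the paired fits without a tag were chosen after seeing the data.

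The tags in the labels pair the libraries: same-tag deviations from the fraction means correlated across genes at 0.53, 0.521, 0.27 and 0.304, all above the limit of 0.1. Some pairs with different tags also exceeded that limit, up to 0.257 for iron positive 4R with iron negative 3R, so the limit alone does not single out the same-tag pairs. No libraries were duplicates (chi-square per gene of 9.38 or more). On simulated counts of the 13343 genes for this comparison, calls were made for 31 of 50 genes with a 2-fold change, 41 of 50 with 4-fold, 49 of 50 with 8-fold and 49 of 50 with 16-fold, and for 11 of 13143 without change.

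Every listed ligand is accounted for. Values of each library are given for those past the threshold and for the 10 with the highest mean TPM. Members, lists and patterns were chosen with earlier results of these data known. Promoter windows are from RefSeq (GRCm38.p6) and were matched by symbol for 26 of the 36. No entry was matched for Ccl2, Ccl4, Ccl5, Ccl7, Ccl11, Ccl24, Cxcl5, Cxcl11, Cxcl16 and Cxcl17. The Cxcl12 transcripts and the 2-fold limit on the range were singled out after their values were seen. Some genes of the wider lists are not reported here by name.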

Additional observations from a re-analysis of the deposited data

Results flagged for a closer look

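In 3 of 54 groups of 4 libraries tested for a single value far from the rest, 1 library stood apart, and chance alone marks about 1 in 20 such groups. All 3 were iron negative libraries, each with a different tag. Ccl12 was low in iron negative 3R, at 116 CPM against 151 to 158 in the others. Ccl5 was low in iron negative 4R, at 11.1 CPM against 13.5 to 14.0 in the others. Cxcl9 was low in iron negative 5L, at 114 CPM against 136 to 139 in the others. Each of these low values still lay above the iron positive library of its tag.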

How the results depend on the processing

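The 10 ligands called in edgeR kept their direction under all 29 alternatives and were called in all 8 DESeq2 fits that left out 1 library. With the tag as a replicate block 10 ligands were higher and 8 lower, DESeq2 gave 10 and 5, and the macrophage scaling 8 and 0 (4 lower at an unadjusted p under 0.05). The other scalings and filters gave 7 or 8 higher (Ccl11 in addition) and 3 lower. Limma gave 3 higher and 3 lower ligands on log2(TPM + 0.1), and 1 and 2 on log2(TPM + 1). Leaving out a library or a tag gave 0 to 13 higher and 0 to 7 lower ligands. The replicate block changed no call of a ligand other than the 8 it added. Over all genes, 1133 higher and 695 lower became 1705 and 1253 with the block, 1703 and 1070 in DESeq2, 706 and 270 on log2(TPM + 0.1), and 413 and 205 on log2(TPM + 1). Scaling by library totals left 362 lower and the macrophage scaling 14, so that 76.4% and 99.0% of calls were higher, against 62.0% with TMM. Without 1 library or tag there were 0 to 1883 higher and 0 to 1267 lower genes. The cause of these differences was not tested, apart from there being fewer samples when libraries are left out. Depth limits the 9 ligands without a test, Cxcl5, which had under 20 counts per iron negative library, and Ccl28, which had under 20 in every library.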
